A study of Rattus norvegicus with 40 samples.

Results

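Gene expression was compared between the livers of 5 rats heterozygous for a Tti2 knockout (SHR-Tti2+/-) and 5 wild type littermates. These 10 samples were all the samples of the series whose labels give the tissue as liver, out of 40 in all. The other samples came from the soleus muscle, the perirenal fat (called peritoneal in the labels) and the hippocampus of the same colony, with 5 rats per genotype in each. All rats shared the strain background of the spontaneously hypertensive rat, SHR/OlaIpcv, which is itself a model of high blood pressure and metabolic disturbance, so both genotypes carry that background. The knockout allele is a small frameshift deletion in the first exon of Tti2, made with a zinc finger nuclease, and a single line with this deletion was bred. Tissues were taken from 6 rats per genotype, and for each tissue the 5 samples with the best RNA quality per genotype were sequenced. For the liver these were the rats numbered 1, 2, 4, 5 and 6 of each genotype, which are different animals in the 2 genotypes. The study used male rats, and the age at which the sequenced tissues were taken is not stated in the methods.

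Tti2 encodes a subunit of the TTT complex (Telo2, Tti1 and Tti2), a co-chaperone that helps newly made kinases of the PIKK family to fold and to assemble. This family includes mTOR, which couples nutrients and insulin to protein and lipid synthesis, ATM and ATR, which respond to DNA damage, and SMG1, which acts in the decay of messages with early stop codons. The liver makes glucose during fasting, makes and exports lipids and most plasma proteins, and answers to insulin partly through mTOR.

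The measurements were made on polyadenylated RNA, transcript by transcript. The deposited tables identify each transcript by its Ensembl ID and give no gene name, and 0 of 31715 IDs could be matched to the gene table at hand. Therefore Tti2 itself could not be looked up by name as a check of the labels. Markers of hepatocytes and other liver cells could not be read. For the same reason 4 transcripts are printed by ID, while the rest are identified by their rank of p-value. Levels are given as TMM-normalized CPM (read counts scaled to library size and composition) when rats are compared, and as TPM (scaled also for transcript length) when transcripts or tissues are compared. As these are bulk samples, fewer cells of a type and less RNA per cell cannot be told apart.

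The liver libraries were deep and alike. Estimated counts summed to between 23868012 and 32318812 per liver, with a median of 25580670 in the wild type and 24656410 in SHR-Tti2+/-, a difference within the spread between rats (two-sided exact permutation test, p = 0.508, n = 5 and 5). The number of transcripts with at least 5 estimated counts was 17951 to 18588 in the wild type and 17758 to 18171 in SHR-Tti2+/- (exact permutation test, p = 0.135). Each liver correlated with the mean of the other wild type livers at r = 0.987 or more across transcripts, and with the mean wild type muscle, fat or hippocampus at no more than 0.632. Transcripts that mark another tissue by their level had overlapping sums in the 2 genotypes. For fat, the sum was 260 to 395 TPM in wild type and 249 to 377 TPM in SHR-Tti2+/- livers. Muscle and hippocampus transcripts gave 121 to 136 and 184 to 234 TPM in wild type livers and 121 to 134 and 192 to 228 TPM in SHR-Tti2+/- livers.

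Heterozygous loss of Tti2 went with a change in a small set of liver transcripts by edgeR, divided evenly between higher and lower. The paper reported many more changed liver transcripts at the same limits, from a Wald test. Of the 18336 transcripts that reached 5 estimated counts in 5 or more livers, 38 were called, that is 0.207%, at an adjusted p under 0.1 and a change of at least 1.5-fold (edgeR, quasi-likelihood F-test, p adjusted after Benjamini and Hochberg). Of these, 19 were higher in SHR-Tti2+/- livers (0.104%) and 19 were lower (0.104%). DESeq2, run with the same limits, called 120 (0.654%), with 50 higher and 70 lower, among them 36 of the 38. Changes of 3-fold or more were called for 8 transcripts that were higher and 3 that were lower. The TPM summed over the transcripts called higher was 530 in the wild type and 1533 in SHR-Tti2+/-, and over those called lower it was 244 and 125. These sets were chosen by their direction. Most of the rise lay in ENSRNOT00000018795.3 (124 to 384 TPM), rank 21 (71.3 to 271 TPM) and rank 29 (213 to 636 TPM). In 36 of the 38 the 5 SHR-Tti2+/- values lay wholly above or wholly below the 5 wild type values, a separation seen in 2.55% of all tested transcripts. The call and this separation come from the same values, so the latter adds no evidence to the former. The ranks 12 and 25 met the filter through 1 genotype alone, which sets their separation.

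**Figure D1:**
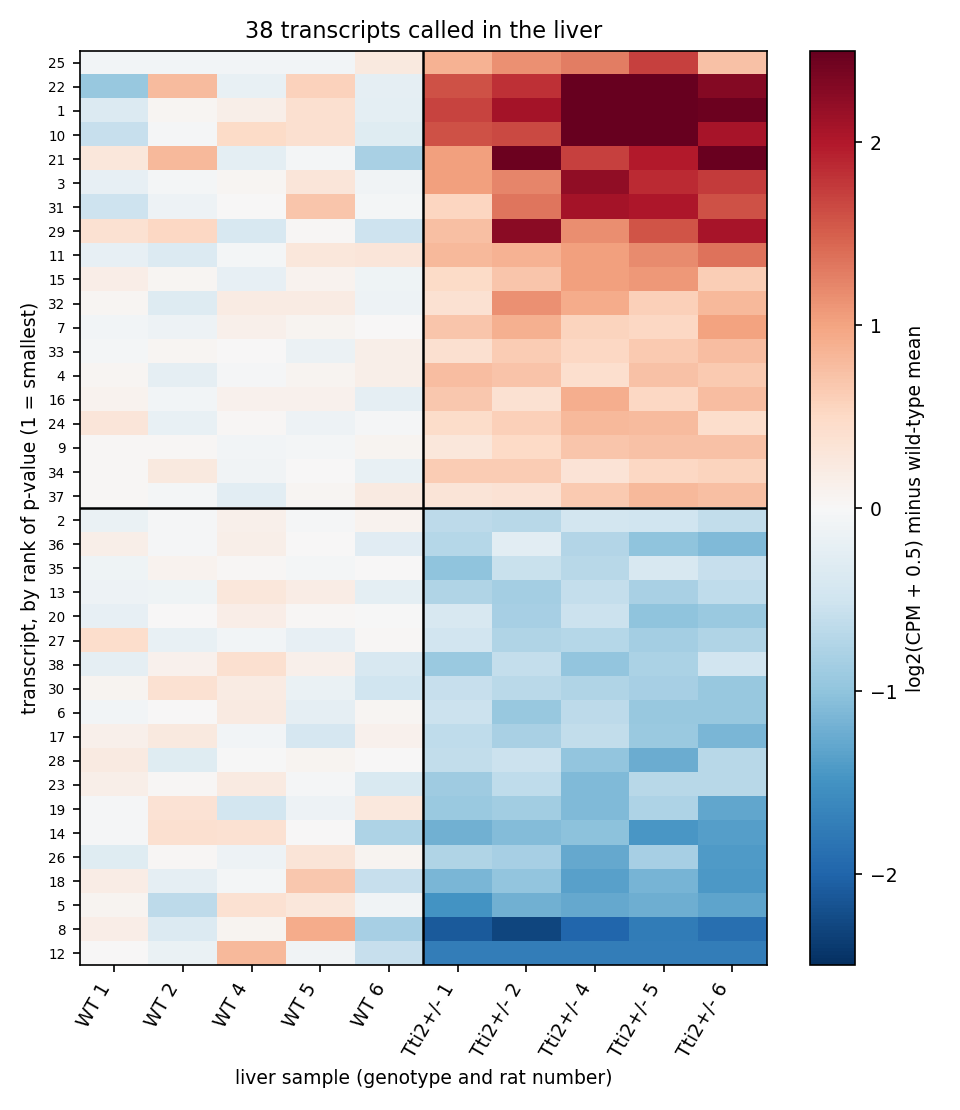
Colour gives the liver level of each of the 38 called transcripts in each rat, as log2(CPM + 0.5) minus the mean of the 5 wild type livers, with rows ordered by fold change and labelled by rank of p-value (1 is the smallest) and columns by genotype and rat number. The upper 19 rows are higher and the lower 19 rows lower in SHR-Tti2+/-, and the ranks 1, 3, 10, 22 and 31 share their darkest red in rats 4, 5 and 6.

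The transcript with the smallest p-value was ENSRNOT00000028546.5, 1702 bases long. In the wild type livers it stood at 8.32, 11.1, 11.9, 14.3 and 8.89 CPM (rats 1, 2, 4, 5 and 6), and in the SHR-Tti2+/- livers at 35.4, 47.0, 91.0, 71.1 and 61.0 CPM. The lowest SHR-Tti2+/- value was above the highest wild type value. The mean rose from 10.9 ± 2.42 to 61.1 ± 21.5 CPM (SD, n = 5), a log2 fold change of 2.48 (SE 0.25, edgeR quasi-likelihood test with Benjamini-Hochberg adjusted p = 0.0177). It stayed called with each liver left out in turn, with a log2 fold change between 2.30 and 2.63. Wild type liver was the tissue where this transcript was lowest, at a mean of 6.22 TPM against 26.4 TPM in muscle, 59.8 TPM in fat and 50.4 TPM in hippocampus, so that the SHR-Tti2+/- liver, at 33.9 TPM, came into the range of the other tissues.

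ENSRNOT00000018795.3, 1268 bases long, rose from a high level and was a transcript of the liver. The wild type livers held 109, 120, 128, 154 and 118 CPM and the SHR-Tti2+/- livers 256, 294, 584, 454 and 423 CPM, in the same order of rats. The groups did not overlap, and the spread among the SHR-Tti2+/- rats was wide, with rat 4 the highest and rat 1 the lowest. The means were 126 ± 17.2 and 402 ± 132 CPM (SD, n = 5), a log2 fold change of 1.68 (SE 0.21, edgeR quasi-likelihood test with Benjamini-Hochberg adjusted p = 0.0272), and it too stayed called with each liver left out. Per length it went from 124 to 384 TPM, while no sample of muscle, fat or hippocampus of either genotype held more than 1.42 TPM.

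The lower transcript with the smallest p-value, ENSRNOT00000030569.5, 3211 bases long, changed less but with little spread. Its values were 38.4, 41.9, 47.3, 42.3 and 45.7 CPM in the wild type and 27.3, 26.3, 31.1, 30.2 and 27.8 CPM in SHR-Tti2+/-. Every wild type liver was above every SHR-Tti2+/- liver. The means were 43.1 ± 3.47 and 28.5 ± 2.02 CPM (SD, n = 5), a log2 fold change of -0.60 (SE 0.068, edgeR quasi-likelihood test with Benjamini-Hochberg adjusted p = 0.0272). As this lies at the 1.5-fold limit, the call was kept in 6 of 10 fits that left out a liver and was lost without wild type rats 4 or 6 or SHR-Tti2+/- rats 1 or 2, while its adjusted p stayed at 0.0656 or less in all 10.

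ENSRNOT00000032467.4, 1923 bases long, was chosen because earlier results of these data showed it lower in every tissue. In the liver its values were 11.8, 11.9, 15.9, 14.7 and 10.8 CPM in the wild type and 7.47, 6.89, 8.40, 7.13 and 8.14 CPM in SHR-Tti2+/-. The groups did not overlap, and the SHR-Tti2+/- values were the more tightly grouped. The mean fell from 13.0 ± 2.15 to 7.61 ± 0.64 CPM (SD, n = 5), a log2 fold change of -0.77 (SE 0.11, edgeR quasi-likelihood test with Benjamini-Hochberg adjusted p = 0.0371). Without SHR-Tti2+/- rat 5 the adjusted p was 0.106, and the call was lost.

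**Figure D2:**
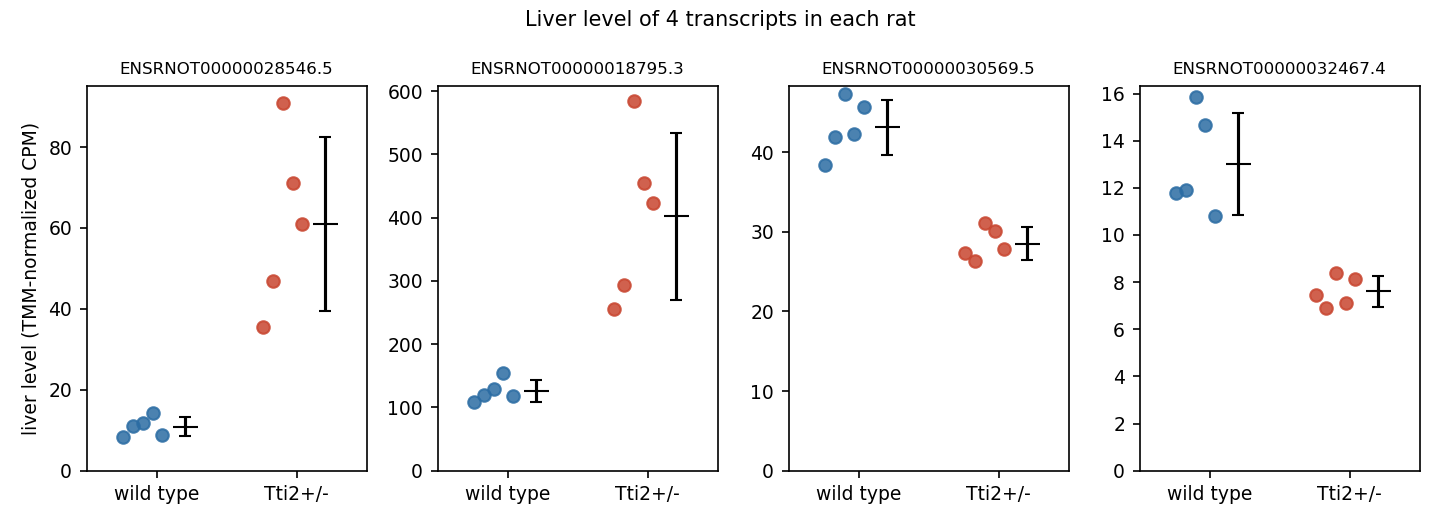
Liver level (TMM-normalized CPM, linear axis from 0) of the 4 transcripts named by ID, with a point per rat (wild type blue, SHR-Tti2+/- red) and a black bar with whiskers for the mean and SD of 5 rats. In each panel the 2 genotypes do not overlap, and the 2 transcripts that rose spread more widely among the SHR-Tti2+/- rats than those that fell.

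Beyond these, the changes of 2-fold or more that were called comprised 9 higher and 7 lower transcripts, of 434 transcripts that differed by as much among all tested. The transcript of rank 10 (1249 bases) rose from 3.28 ± 1.15 to 17.1 ± 7.72 CPM (SD, n = 5), without overlap between the groups, a log2 fold change of 2.37 (SE 0.33). That of rank 22 (537 bases) rose from 1.28 ± 0.81 to 7.86 ± 3.21 CPM, again without overlap, a log2 fold change of 2.60 (SE 0.45). Both were lower in wild type liver than in any other wild type tissue, as was the transcript of rank 31 (4997 bases). The last rose from 5.67 ± 2.02 to 17.7 ± 6.82 CPM (log2 fold change 1.64, SE 0.31), with the lowest SHR-Tti2+/- value, 8.17 CPM, below the highest wild type value, 9.05 CPM. Of 10 fits that left out a liver, 10 kept the call of rank 10, 6 that of rank 22 and 2 that of rank 31.

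The ranks 21 and 29 were short transcripts (382 and 389 bases) of high level. Rank 21 went from a mean of 11.2 CPM (5.74 to 18.7) to 43.8 CPM (21.8 to 60.2), or from 71.3 to 271 TPM, a log2 fold change of 1.96 (SE 0.34). Rank 29 went from 34.7 ± 10.9 to 107 ± 43.9 CPM, or from 213 to 636 TPM, a log2 fold change of 1.62 (SE 0.30). These 2, with ENSRNOT00000018795.3, were the transcripts called at a mean of 100 TPM or more, and all 3 were higher in SHR-Tti2+/-. The edgeR adjusted p was 0.0636 for rank 21 and 0.0870 for rank 29. With a liver left out, the call was kept in 4 of 10 fits for rank 21 and in 1 of 10 for rank 29.

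Among those that fell, rank 8 (624 bases) changed most of those with reads in both genotypes. Its wild type values were 11.9, 8.24, 11.1, 20.5 and 5.66 CPM and its SHR-Tti2+/- values 2.07, 1.75, 2.27, 2.78 and 2.47 CPM, without overlap. The log2 fold change was -2.34 (SE 0.31, edgeR quasi-likelihood test with Benjamini-Hochberg adjusted p = 0.0272) and kept between -2.51 and -2.02 with each liver left out. In wild type muscle, fat and hippocampus this transcript was listed at 0 TPM, against 23.6 TPM in wild type liver. Rank 5 (825 bases) fell from 3.96 ± 1.13 to 1.26 ± 0.14 CPM (log2 fold change -1.65, SE 0.22), and rank 14 (3186 bases) fell from 25.6 ± 7.57 to 10.3 ± 1.38 CPM (log2 fold change -1.32, SE 0.20).

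A pair of called transcripts, ranks 12 and 25, was at or near 0 in 1 genotype. Both met the filter only through the 5 livers of the other genotype, so their separation is no support for the call. Without 1 of those livers they missed the filter. Of the 10 fits that left out a liver, rank 12 was called in 5 and rank 25 in 1. DESeq2 gave an adjusted p for neither. Rank 12 (721 bases) had 16 to 58 estimated counts in every wild type liver and 0 in every SHR-Tti2+/- liver. Against a floor of 3 counts per library it was at least 10.6-fold lower in SHR-Tti2+/-. Rank 25 (3172 bases) had 0 counts in 4 wild type livers and 3 in rat 6, against 10 to 31 in the SHR-Tti2+/- livers, and the summed counts of 86 and 3 gave a ratio of 30.2 (95% exact interval 9.996 to 149, counting error only). kallisto divides reads that fit several transcripts among them, so such a value counts reads assigned to the transcript, and whether reads moved to another transcript of the same gene was not tested.

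The fitted log2 fold changes of the 36 called transcripts with more than 3 counts in a rat of each genotype ran from -2.34 to 2.60. The median absolute log2 fold change of the 38 was 0.84, against 0.12 over all tested transcripts, a difference that the 1.5-fold limit itself sets. Another 40 transcripts had an adjusted p under 0.1 and a smaller change, 21 higher and 19 lower, with a median absolute log2 fold change of 0.46. Thus 78 transcripts (0.425%) passed the adjusted p alone. At an unadjusted p under 0.05 there were 1862 transcripts, 10.2% of those tested, with 969 higher (5.28%) and 893 lower (4.87%). Over all tested transcripts the median log2 fold change was 0.0014, and 5% to 95% of the values lay between -0.53 and 0.46.

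Called transcripts lay mostly under 10 TPM, as did the tested transcripts as a whole. The median of their mean level was 5.87 TPM (8.98 TPM for those higher and 4.39 TPM for those lower in SHR-Tti2+/-), against 3.89 TPM over all tested transcripts. Their median length was 2133.5 bases, against 2105 bases over all tested. Of 4628 transcripts under 1 TPM, 3 were called (0.0648%), 2 higher and 1 lower. Of 8186 transcripts at 1 to under 10 TPM, 22 were called (0.269%), 9 higher and 13 lower. Of 4605 transcripts at 10 to under 100 TPM, 10 were called (0.217%), 5 in each direction. Of 917 transcripts at 100 TPM or more, 3 were called (0.327%), and 0 of these were lower. The share called over all tested transcripts was 0.207%.

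The precision of a fold change grew with abundance, so that smaller changes could reach a given p-value at high abundance. The median SE of the log2 fold change was 0.38 under 1 TPM, 0.14 at 1 to under 10 TPM, 0.071 at 10 to under 100 TPM and 0.058 at 100 TPM or more. A change of at least 1.5-fold was estimated for 19.2%, 4.81%, 1.28% and 0.545% of the transcripts of these classes. In all, 1348 tested transcripts (7.35%) differed by 1.5-fold or more, and the 97.2% of them that were not called had a median of 0.511 TPM.

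The transcripts that make up most of the liver's message had small estimated changes. The 106 transcripts at 1000 TPM or more carried 60.5% of the TPM, and their log2 fold changes lay between -0.14 and 0.32. By edgeR's quasi-likelihood test 0 of them were called, and the smallest Benjamini-Hochberg adjusted p was 0.239. The share called over all tested transcripts was 0.207%, so 0 of 106 lies near that share and is no result about these transcripts. An unadjusted p under 0.05 was reached by 18 of the 106, against 10.2% of all tested transcripts.

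**Figure D3:**
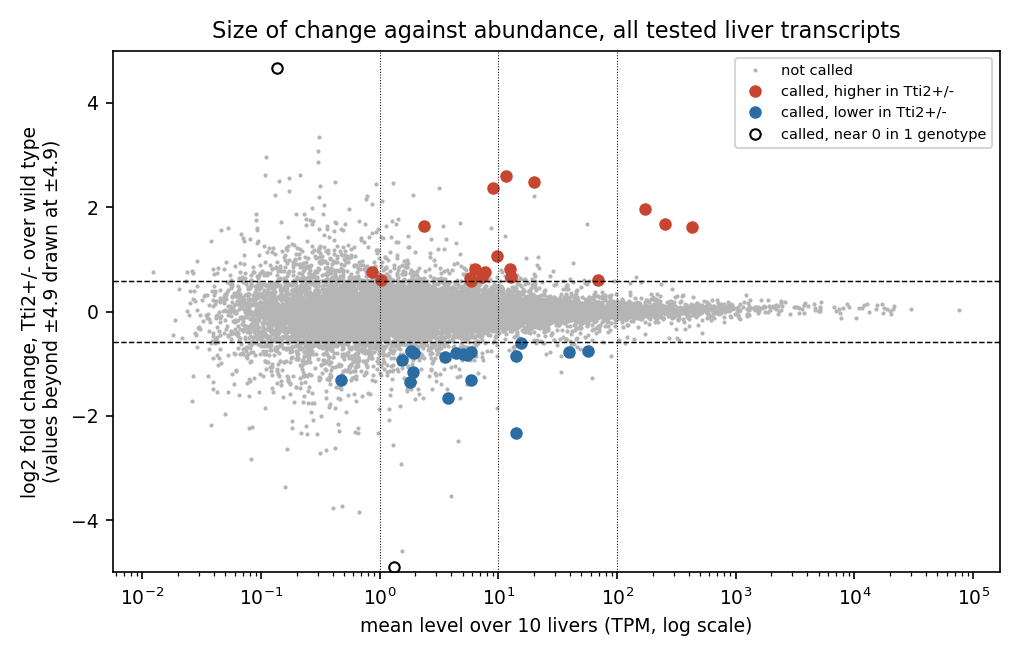
Each point is a tested liver transcript, with the mean level over 10 livers in TPM on a log axis and the log2 fold change of SHR-Tti2+/- over wild type on the vertical axis. Dashed lines mark 1.5-fold, dotted lines mark 1, 10 and 100 TPM, and open black circles are the 2 called transcripts near 0 in 1 genotype, whose fitted fold is no measurement of size. The grey cloud narrows toward high abundance, and at 100 TPM or more the 3 called transcripts are all higher. Of these 3, the ranks 21 and 29 lost the call in most fits that left out a liver.

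Each transcript was then classed by where it is expressed in wild type rats. A transcript was liver-restricted if its mean TPM in wild type liver was at least 10 times that of the highest other tissue, liver-enriched at 2 to under 10 times, lower in liver at 1/2 of the highest other tissue or less, and shared in between. Of the 38, 2 were liver-restricted (ENSRNOT00000018795.3, higher, and rank 8, lower), 4 liver-enriched, 12 shared and 20 lower in liver than elsewhere. These classes held 786, 716, 4029 and 12805 of the tested transcripts, so that 0.254%, 0.559%, 0.298% and 0.156% of each were called, against 0.207% over all. DESeq2 called 14 of the 786 liver-restricted transcripts, against 120 of all 18336 tested (0.654%), so this count moved with the tool. The 12 shared transcripts were 3 higher and 9 lower, and the 20 lower in liver were 13 higher and 7 lower. The class and the fold change both use the wild type livers, so direction and class are not independent. Nothing is read from these splits. For these 20, the tissue with the highest level was fat for 11, hippocampus for 8 and muscle for 1.

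Transcripts restricted to the liver leaned upward in SHR-Tti2+/- by small amounts. Of the 786, 150 (19.1%) had an unadjusted p under 0.05, against the 10.2% over all tested transcripts, and 129 of these were higher and 21 lower. Their median log2 fold change was 0.072. Among liver-enriched transcripts, 75 were higher and 32 lower at this threshold, among shared ones 214 and 256, and among those lower in liver 551 and 584. These counts were chosen after their values were seen and are descriptions without a test of the list. Class and direction here also share the wild type liver values. Liver-restricted transcripts had a median level of 42.1 TPM, and the median SE of their log2 fold change was 0.106, against 0.107 for shared transcripts. Among transcripts at 100 TPM or more, 64 of 280 liver-restricted (62 higher, 2 lower), 21 of 103 liver-enriched (18 higher, 3 lower), 29 of 242 shared (19 higher, 10 lower) and 18 of 292 lower in liver (9 higher, 9 lower) had an unadjusted p under 0.05.

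Rat by rat, liver-restricted transcripts carried 47.31% to 49.28% of all TPM in the wild type livers and 49.25% to 49.95% in the SHR-Tti2+/- livers. The groups touched, since wild type rat 2 (49.28%) stood just above SHR-Tti2+/- rat 2 (49.25%). The median deviation of the 786 transcripts from the wild type mean was -0.019 to 0.035 on the log2 scale in the wild type livers and 0.050 to 0.107 in the SHR-Tti2+/- livers, without overlap. The wild type mean contains the wild type rats themselves. SHR-Tti2+/- rat 4 gave the highest of these medians, and its transcripts at 100 TPM or more were also above the wild type mean in the other classes, by a median of 0.118 for shared ones and 0.111 for those lower in liver. With each liver left out, the liver-restricted transcripts at an unadjusted p under 0.05 numbered 90 to 130 higher and 19 to 29 lower. The part of library composition in this shift was not tested beyond another scaling by the median of ratios, which gave 128 higher and 22 lower.

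**Figure D4:**
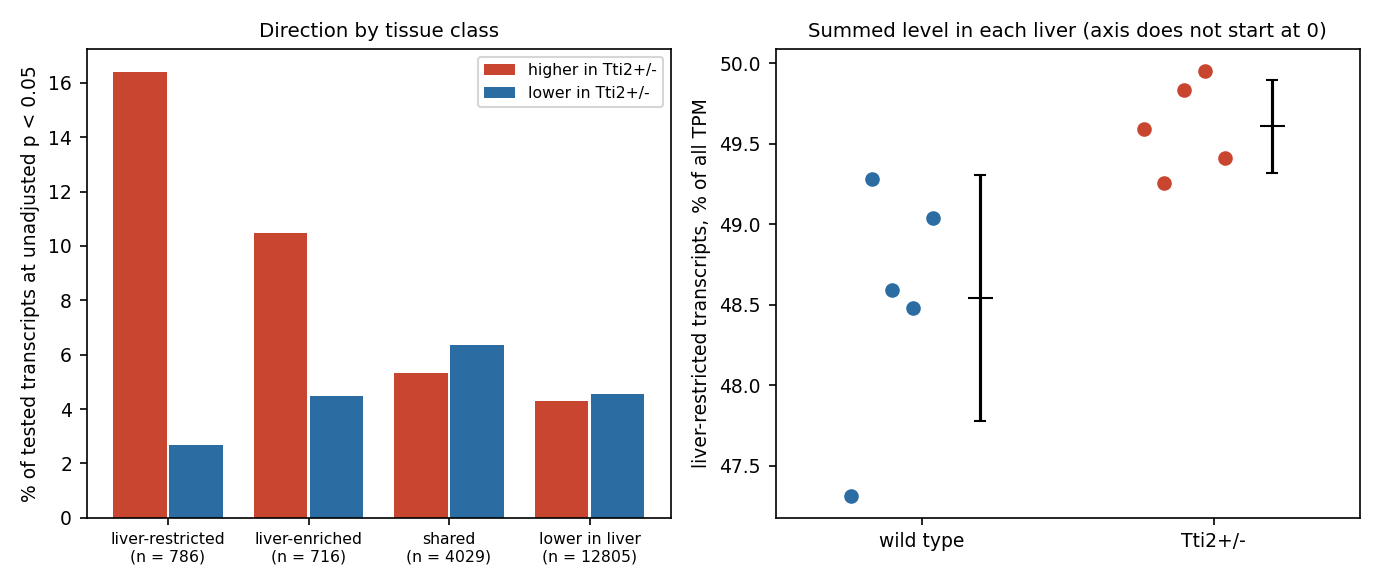
Left, the percent of the tested liver transcripts of each tissue class with an unadjusted p under 0.05, in red if higher and in blue if lower in SHR-Tti2+/-, with the class size below. Right, the percent of all TPM carried by the 786 liver-restricted transcripts in each liver, with mean and SD of 5 rats, on an axis that does not start at 0. The left bars differ most for the liver-restricted class, and on the right the wild type points reach 49.3% and the SHR-Tti2+/- points start there.

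Called transcripts were also compared by how they varied from rat to rat. After subtracting each genotype's mean, the correlation over the 10 livers between any 2 of the 38 transcripts had a median of 0.026 over 703 pairs, of 0.16 over the pairs called higher and of 0.045 over the pairs called lower. Within this, the ranks 1, 3, 10, 22 and 31, all higher in SHR-Tti2+/-, varied together, with r between 0.715 and 0.967 in their 10 pairs. ENSRNOT00000028546.5 and ENSRNOT00000018795.3 formed the closest pair of all (r = 0.967), although the former was lowest in liver among tissues and the latter was restricted to it. The short transcripts of rank 21 and 29 formed a second set (r = 0.951), and between both sets r was -0.15 to 0.27. The 2 sets were highest in different rats: among SHR-Tti2+/- livers the ranks 1, 3, 22 and 31 were highest in rat 4, and the ranks 21 and 29 were highest in rats 2 and 6. These sets were picked from the data, the points share 10 libraries, and whether the transcripts share sequence or reads was not tested.

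SHR-Tti2+/- rat 1 stood nearest to the wild type, holding the SHR-Tti2+/- value closest to the wild type side in 19 of the 38 transcripts. Among the wild type livers, rat 6 held the value closest to the SHR-Tti2+/- side in 15. Since the calls were made on these same values, this describes the spread within the groups.

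Whether the liver's changes were also seen elsewhere was asked by fitting the same contrast in the other tissues, of which 8 rats per tissue also gave a liver. In muscle 33 of the 38 could be tested, and the fold change of 23 had the same sign as in the liver. An unadjusted p under 0.05 was reached by 6 with the same sign and by 1 with the opposite sign, against 6.85% of all transcripts tested in muscle. In fat 36 could be tested, 29 had the same sign, and 9 with the same sign and 0 with the opposite sign had an unadjusted p under 0.05 (6.97% of all tested). Of these 9, 8 were among the 18 transcripts called lower in liver that could be tested in fat. In hippocampus 36 could be tested, 21 had the same sign, and 7 with the same sign and 1 with the opposite sign had an unadjusted p under 0.05 (4.22% of all tested). By the limits used for the liver, 1 of the 38 was called in muscle (0.00555% of all tested there), 0 in fat and 1 in hippocampus (0.00484%), and in both it was ENSRNOT00000032467.4. The changes were smaller there: the median absolute log2 fold change of the liver's calls was 0.20 in muscle, 0.19 in fat and 0.21 in hippocampus. The liver value is the one that chose them, so a smaller value elsewhere follows in part from the choice. As 8 rats per tissue also gave a liver and some called transcripts varied together, the counts of signs are no independent check.

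The difference between the liver and each other tissue was tested with a genotype by tissue term in edgeR, again with p adjusted after Benjamini and Hochberg. At an adjusted p under 0.1, the genotype effect differed from that in muscle for 5 of 33 called transcripts (0.0869% of 16105 tested), from that in fat for 0 of 36 (0.0115% of 17355 tested) and from that in hippocampus for 8 of 36 (0.0894% of 16787 tested). At an unadjusted p under 0.05 the term passed for 26, 28 and 30 of them, and for 8.8%, 8.95% and 8.18% of all transcripts tested. The term contains the liver values that chose the 38, so counts above the share of all transcripts follow in part from the choice, and nothing is read from them. Leaving out a rat moved the counts at the adjusted threshold to between 0 and 8 for muscle, 0 and 4 for fat and 3 and 11 for hippocampus. The paper left out an outlier hippocampus sample, and here all were kept. Without the hippocampus of wild type rat 2 alone, 11 of the called transcripts passed against hippocampus. With each rat as a block, over the 8 rats with both tissues, 1, 0 and 0 of them passed the adjusted threshold. In these blocked fits 1695, 1359 and 872 of all transcripts had an unadjusted p under 0.05. The blocked fits use fewer rats as well as the block, and which of these lowered the counts was not tested.

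The transcript that passed with the block, against muscle, was ENSRNOT00000028546.5. In muscle it rose from 26.4 ± 6.12 to 42.0 ± 3.85 TPM (SD, n = 5), in fat it was at 59.8 ± 19.1 and 88.3 ± 29.5 TPM, and in hippocampus at 50.4 ± 8.94 and 53.1 ± 3.10 TPM. The wild type and SHR-Tti2+/- muscles did not overlap, while both fat and hippocampus did. The liver's log2 fold change exceeded that of muscle by 1.79 (SE 0.31, edgeR adjusted p = 0.0571, with the rat as a block 1.76, SE 0.14, adjusted p = 0.0122). Without the block, leaving out a rat gave a difference from muscle of 1.63 to 1.93, and the edgeR adjusted p was over 0.1, at 0.103 to 0.156, without SHR-Tti2+/- rats 4, 5 or 6 or wild type rats 2 or 4. The liver value exceeded that of hippocampus by 2.42 (SE 0.29, edgeR adjusted p = 0.00154, with the rat as a block 2.45, SE 0.29, adjusted p = 0.323) and that of fat by 1.94 (SE 0.39, edgeR adjusted p = 0.160).

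ENSRNOT00000030569.5 held 20.7 to 24.9 TPM in wild type and 20.5 to 26.0 TPM in SHR-Tti2+/- muscle, and its liver effect differed from that of muscle by -0.63 on the log2 scale (SE 0.098, edgeR adjusted p = 0.0325, with the rat as a block -0.68, adjusted p = 0.137). Without SHR-Tti2+/- rats 4 or 6 the edgeR adjusted p of this difference was 0.107 and 0.151. In fat it was at 18.3 ± 2.89 and 15.3 ± 1.63 TPM (SD, n = 5) and in hippocampus at 47.4 ± 2.85 and 40.2 ± 1.92 TPM. For these the difference from the liver effect had an edgeR adjusted p of 0.590 and 0.260.

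ENSRNOT00000032467.4 was lower in SHR-Tti2+/- in all 4 tissues. Its mean was 7.44 ± 1.08 and 4.24 ± 0.31 TPM in liver (wild type and SHR-Tti2+/-, SD, n = 5), 9.97 ± 0.49 and 5.16 ± 0.18 TPM in muscle, 10.3 ± 0.95 and 6.64 ± 0.75 TPM in fat, and 12.8 ± 0.51 and 7.34 ± 0.58 TPM in hippocampus. In none of the 4 tissues did the genotypes overlap. The liver's log2 fold change differed from those of muscle, fat and hippocampus by 0.14 (SE 0.14), -0.11 (SE 0.15) and 0.04 (SE 0.14), with edgeR adjusted p of 0.836, 0.882 and 0.968. The log2 fold change itself was -0.90 in muscle, -0.81 in hippocampus, -0.77 in liver and -0.66 in fat. The paper reported Tti2 message as lower in heterozygous rats in each of these tissues, most in muscle and least in fat. Whether ENSRNOT00000032467.4 is a transcript of Tti2 was not tested, since its ID could not be matched to a gene name.

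**Figure D5:**
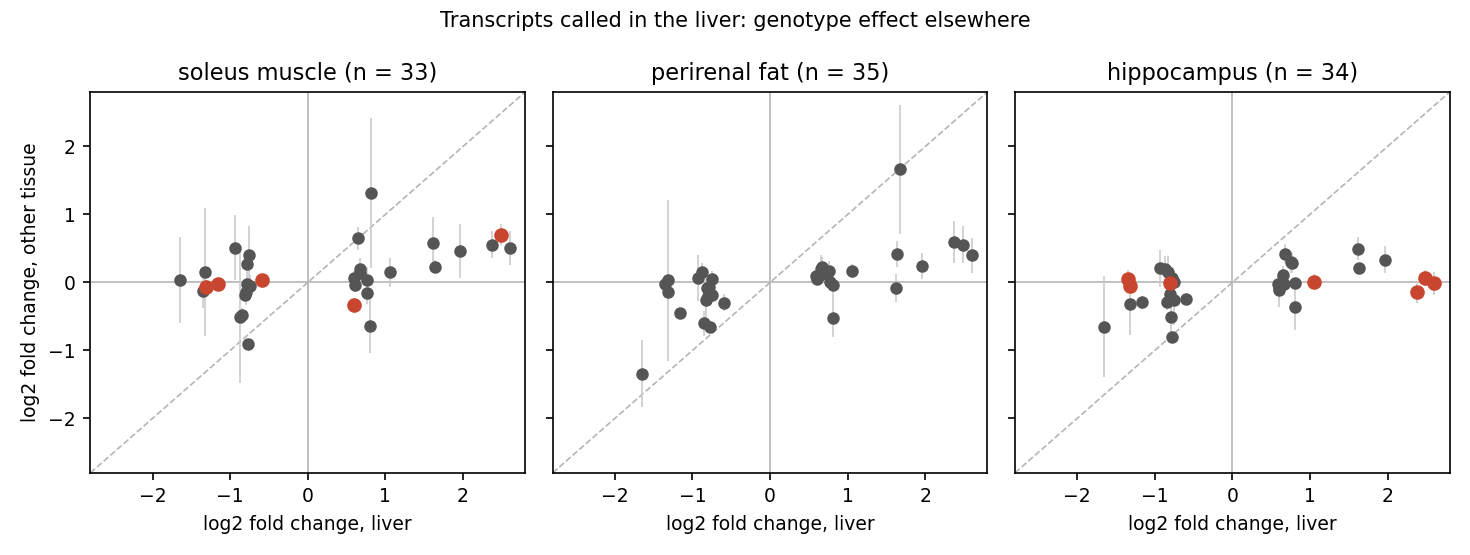
The log2 fold change of SHR-Tti2+/- over wild type in the liver (horizontal) against that in soleus muscle, perirenal fat and hippocampus (vertical) for the transcripts called in the liver and tested there, without the 2 transcripts near 0 in 1 liver genotype. Whiskers give the SE in the other tissue, the dashed line is equality, and red marks a difference between tissues at an adjusted p under 0.1 without the rat as a block (5 in muscle, 0 in fat, and in hippocampus 8 with the rank 25 transcript, which is not drawn). Most points lie nearer to 0 on the vertical than on the horizontal axis.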

How the data were processed

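RNA was measured in 5 wild type and 5 SHR-Tti2+/- livers. The authors made strand-specific libraries from polyadenylated RNA, sequenced single-end reads and estimated transcript levels by kallisto (0.46.0 in the submitters' processing notes, against an Ensembl transcript set, build rn6), with sequence-based bias correction. The deposited estimated counts are unscaled expected counts per transcript, and the deposited TPM were scaled by the authors' software for effective length and library size. Lengths in bases come from the same tables. 0 columns of other samples were left aside.

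The expected counts, rounded, were tested in R 4.3.3 with edgeR 4.0.16 (TMM, quasi-likelihood F-test, with no term but genotype). This keeps the design of the methods for the liver and replaces the authors' Wald test, whose estimate of technical variance is not used here. The authors removed an outlier hippocampus sample before fitting, while the main fits here kept every hippocampus sample. A transcript was tested if 5 or more of 10 livers reached 5 estimated counts, which left out 13379. Calls needed a Benjamini-Hochberg adjusted p under 0.1 and a 1.5-fold change. SE values were taken from the F statistic. TPM entered no test. The genotype by tissue fits used transcripts that passed the filter in both tissues and samples of 12 rats, and same-numbered samples of a genotype come from the same rat by the labels. In the liver the numbers mark different animals in the 2 genotypes, and the deviations of same-numbered livers correlated at 0.0020 to 0.100, so no pairing was used. Single values were compared by exact permutation over 252 assignments.

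Total estimated counts were 23868012 to 32318812 per liver, so that 3 counts, taken as the floor for a transcript at 0, are 0.0928 to 0.126 CPM. Intervals and floors cover counting error only. No pair of livers of a genotype agreed within sampling noise (chi-square per degree of freedom 10.8 or more). The liver contrast by edgeR, DESeq2 and limma, and the edgeR genotype by tissue term without a block, were run on simulated data. Of their calls there, 4.43%, 16.1%, 10.1% and 9.2% in this order were transcripts simulated without a change. For the liver contrast edgeR recovered 66.0% of simulated log2 fold changes of size 1 and 93.7% of those of size 2. The genotype by tissue simulation drew both tissues without a shared rat effect, although 8 rats gave both. Its 9.2% therefore does not cover that structure. The blocked fits and the permutation tests were not run on simulated data.

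The 10 livers, the transcripts named by ID and the classes were chosen with earlier results of these data known. Named by ID were among called transcripts, the 2 higher ones and the lower one of smallest p-value, and 1 known to be lower in every tissue. Other transcripts described by rank were chosen after their values were seen. Gene lists of the TTT complex, the neighbours of Tti2, insulin signalling, lipid synthesis, bile acids, the clock and the acute phase, and markers of liver cell types, were planned, need gene names and were not run. Alternatives were median-of-ratios scaling, DESeq2 1.42.0, limma 3.58.1 on log2(CPM + 0.5), other filters and thresholds, a replicate block, and each rat left out. A filter on rounded counts, the counts for liver-restricted transcripts at an unadjusted p and hippocampus without a rat that stood apart were added after seeing the data.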

Additional observations from a re-analysis of the deposited data

Results flagged for a closer look

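In the liver, 1 of 84 groups of 5 rats examined held a value apart from the other 4, where chance gives about 4.2. This was the transcript of rank 25, at 0.115 CPM in wild type rat 6 and at 0 in the other wild type livers, a gap of 1 of the group's range. The 0.115 CPM correspond to 3 counts, which is the floor. The groups examined were library measures and, for the most part, the levels of the called transcripts in each genotype. Calling favours transcripts with little spread within a genotype, so nothing is read from the count falling under the chance figure.

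The genotype effect of 5 liver-called transcripts differed from that in the soleus muscle, and that of 8 differed from that in the hippocampus, by a genotype by tissue test. Among them were ENSRNOT00000028546.5, against muscle (edgeR adjusted p = 0.0571) and against hippocampus (edgeR adjusted p = 0.00154), and ENSRNOT00000030569.5 against muscle (edgeR adjusted p = 0.0325). With each rat as a block the edgeR adjusted p of these were 0.0122, 0.323 and 0.137.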

How the results depend on the processing

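The 38 liver calls kept their direction in every alternative in which they were tested, but their number moved. DESeq2 called 120 (0.654% of all tested), with 50 higher, 70 lower and 36 of the 38 among them. Of the 786 liver-restricted transcripts it called 14, against 2 by edgeR. By limma 29 were lower against 19, and at least 10 counts in every liver left 64 (36 lower). An adjusted p under 0.05 left 18 (9 higher, 9 lower), and no fold limit gave 78 (40 higher, 38 lower). With the rat number as a replicate block there were 11 (5 higher, 6 lower), 10 of them among the 38. Same-numbered livers are different animals in the 2 genotypes, so this block matches them by number only and leaves fewer degrees of freedom. Leaving out each liver gave 11 to 55 calls, with 6 to 30 higher and 5 to 25 lower: 11, 19 and 55 without wild type rats 4, 2 and 6, and 13, 18, 24 and 24 without SHR-Tti2+/- rats 5, 6, 2 and 4. Of the 38, 8 were called in every such fit (5 higher, 3 lower), and 34 by edgeR, DESeq2 and limma alike. The cause was not tested. ENSRNOT00000032467.4 had an adjusted p of 0.126 under the block.

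Differences of the genotype effect between tissues were counted as 14, 2 and 15 over all transcripts for muscle, fat and hippocampus. They became 1, 0 and 0 with the rat as a replicate block, and 1 to 61, 1 to 15 and 5 to 39 with each rat left out. Without the hippocampus of wild type rat 2 there were 30. The 19 alternatives for the liver-restricted counts stayed within 1.5 times their values. Under 1 TPM the larger SE, which holds counting error and rat-to-rat spread together, limits what can be said, and without gene names no transcript can be tied to a function.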
